A study of Homo sapiens with 12 samples.

Results

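The leukocyte differentiation antigens CD38, BST1, CD52, CD14, CD33, CD34, CD68 and CD163 were followed in RNA-seq data of the human myelomonocytic leukemia cell line U937. The members were all transcripts carrying 1 of these 8 gene symbols in the deposited table, out of 44786 symbols. They amounted to 44 of 197782 transcripts, of which 19 had reads. They were taken by symbol, and the set of markers was drawn up with earlier results of these data known.

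The study asked whether DAC (decitabine, a DNA hypomethylating agent) cooperates with ATRA (all-trans retinoic acid) in acute myeloid leukemia. Total RNA depleted of ribosomal RNA was sequenced in 12 strand-specific libraries, 3 per group. The groups were untreated cells (libraries 1 to 3), cells given 200 nM DAC (libraries 4 to 6), cells given 1 µM ATRA (libraries 7 to 9) and cells given both agents at these doses (libraries 10 to 12). All groups shared RPMI medium, by the labels with 20% FCS and 5 ng/ml GM-CSF. The labels give 72 h for the treated cells and 96 h for the untreated cells, and time and treatment cannot be told apart where these differ. By the labels each agent was given over 3 days, whereas by the paper's methods ATRA was added only with the last of the daily DAC doses. The series describes technical triplicates of a single cell line, so p-values measure only the spread between these libraries.

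CD38 and BST1 (CD157) are related ectoenzymes that consume NAD, and CD38 is a classical marker of the response of myeloid cells to retinoic acid. CD34 marks hematopoietic stem and progenitor cells, CD33 is a sialic acid-binding lectin of the myeloid lineage, and CD52 is a short GPI-anchored glycoprotein best known from lymphocytes and monocytes. CD14, the co-receptor for lipopolysaccharide, the lysosomal glycoprotein CD68 and the hemoglobin scavenger receptor CD163 mark monocytes and macrophages.

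The deposited values are read counts per transcript divided by 1 size factor for each library, called normalized read counts here. Between 8042435 and 10683593 reads were counted per library, and 3 reads were worth 2.50 to 3.71 normalized read counts. Reads that fit several transcripts of a gene appear in few of the values: of 14 member transcripts with no base outside the other transcripts of their strand 1 had reads, against 14 of 16 with at least 100 such bases. Levels are therefore compared between groups but not between genes. Of 12 genes that define the myeloid identity of U937, 6 passed the filter for testing, among them MPO, CEBPA and CYBB, whereas PTPRC, TYROBP, CSF2RA, AIF1 and LST1 were listed at 0 in every library.

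Of the 44 member transcripts, 6 had a read in all 12 libraries and 25 had none. Tests were run with limma on log2(normalized read count + 1) for 9016 protein-coding transcripts with at least 10 normalized reads in at least 3 libraries, at a Benjamini-Hochberg adjusted p under 0.01. In all, 5 member transcripts of 4 genes (CD38, BST1, CD52 and CD34, the last with 2 transcripts) passed this filter. The genes CD14, CD33, CD68 and CD163 had no protein-coding transcript that passed it. A transcript that is high in a single group can pass such a filter through that group alone, and CD52 and the longer CD34 transcript passed it through treated groups only.

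**Figure D1:**
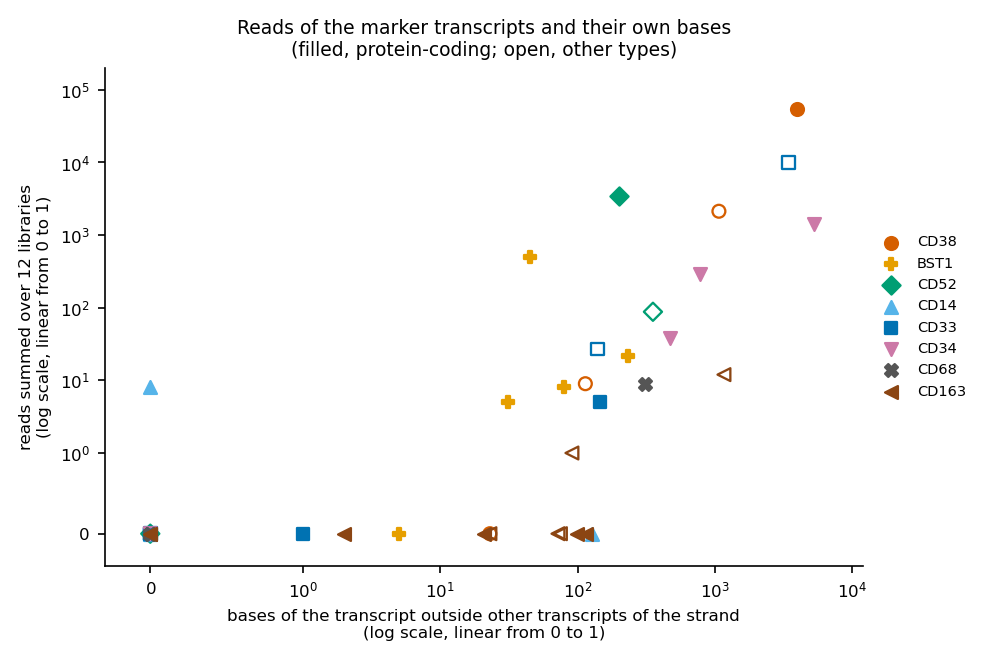
Reads of each member transcript summed over 12 libraries (y) against the bases that it shares with no other transcript of its strand in GENCODE 44 (x), with 1 CD14 transcript that could not be matched left out. Protein-coding transcripts (filled) of CD14, CD33, CD68 and CD163 have at most 311 such bases and at most 9 reads. CD38 ENST00000226279 has 3977 such bases and 54655 reads, and CD52 ENST00000374213 has 199 and 3403.

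With DAC, 3 of the 4 tested genes passed the threshold, CD52 and CD34 upwards and CD38 downwards, against 39.3% of all tested transcripts (30.6% upwards and 8.7% downwards). With ATRA the 3 genes were CD38 and CD52 upwards and CD34 downwards, against 9.14% (6.47% upwards and 2.67% downwards), but the call of CD34 did not hold with edgeR or DESeq2, which left 2 genes. With DAC+ATRA, CD38, CD52 and CD34 were all upregulated, against 46.8% of all transcripts in either direction and 32.6% upwards. These 3 comparisons share the untreated libraries. Adding ATRA to DAC passed the limma threshold for 1 gene, CD38, upwards (11.3% of all transcripts, 6.08% upwards), and for 3 with edgeR and with DESeq2, CD52 upwards and CD34 downwards among them. Limma without untreated library 2 also gave 3, but that library is not part of this comparison and enters it only through the pooled spread. Adding DAC to ATRA did so in limma for CD52 and CD34, both upwards (34.8%, 25.9% upwards), and with edgeR (TMM, though not with DESeq2's size factors) and DESeq2 also for CD38, downwards. None of the 4 genes passed the limma test of the DAC x ATRA interaction, that is of a departure of the combination from the sum of both single log2 effects (2.46% of all transcripts). At an unadjusted p under 0.05 limma counted 2 of them, CD52 and CD38, and edgeR and DESeq2 counted 0 at the adjusted threshold. Calls in comparisons with so wide a background cannot be called particular to these markers.

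**Figure D2:**
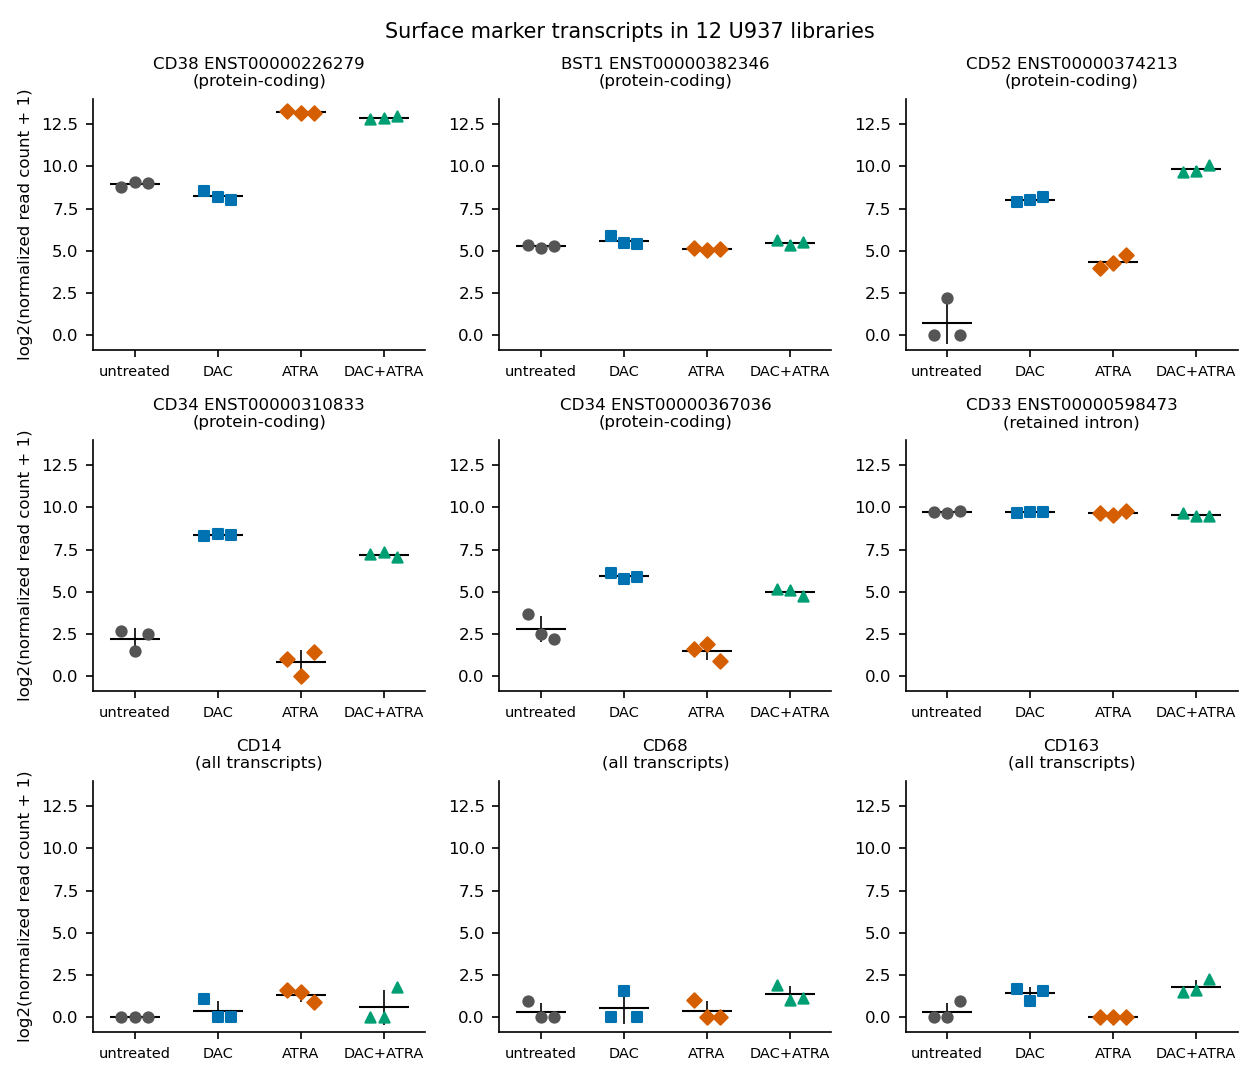
Log2(normalized read count + 1) in each library (points) with the mean and SD of 3 libraries (lines) for each group, for the transcript of each marker with most reads, the further tested CD34 transcript and, for CD14, CD68 and CD163, the sum of all transcripts. CD38 is high with ATRA and DAC+ATRA, CD34 with DAC and DAC+ATRA, CD52 most with DAC+ATRA, and CD14, CD68 and CD163 stay at or below 3.71 normalized reads.

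CD38, which converts NAD to ADP-ribose and cyclic ADP-ribose, rose with ATRA and not with DAC, whereas CD52 rose with each of them. Its coding transcript ENST00000226279 lies on the plus strand of chromosome 4 (hg38, chr4:15778328-15853232) with 8 exons and took 96.2% of the 56796 reads of the gene. The stretch of its promoter upstream of every annotated transcript start is shown since DAC leads to the loss of methylation at CpGs (RefSeq, GRCh38.p14, chr4:15778078-15778274, plus strand, CpGs in capitals).
CD38 promoter: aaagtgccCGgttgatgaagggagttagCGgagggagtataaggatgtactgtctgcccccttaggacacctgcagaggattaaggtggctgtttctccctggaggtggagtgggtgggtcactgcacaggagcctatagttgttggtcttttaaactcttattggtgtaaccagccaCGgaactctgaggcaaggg
It holds 3 CpGs, and the whole window from 250 bases before to 50 bases after the start holds 4. The median promoter of 35116 in the table holds 14, and 75.5% hold at least 4.

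In untreated cells CD38 ENST00000226279 had 436, 543 and 508 normalized reads. With DAC it had 365, 295 and 257, and with ATRA 9766, 9317 and 9124. With DAC+ATRA it had 7167, 7608 and 8075. The groups did not overlap, in the order ATRA, DAC+ATRA, untreated and DAC from high to low. The mean of ATRA-treated cells was 19.0 times that of untreated cells (95% interval 17.99 to 19.9, for counting error only). In limma the log2 fold change with ATRA was 4.25 ± 0.12 (SE, adjusted p = 4.8e-16), the 28th highest of 9016.

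DAC lowered CD38 by itself, to 0.617 times the untreated mean. The log2 fold change with DAC was −0.70 ± 0.12 (limma, adjusted p = 3.69e-05) while the median of all tested transcripts moved by 0.22, so that relative to this median it was −0.93. DAC+ATRA raised CD38 by 3.94 ± 0.12 (log2, limma, adjusted p = 1.36e-16) over untreated cells and by 4.65 ± 0.12 over DAC alone (adjusted p = 1.93e-16). The 3 DAC+ATRA libraries lay below the 3 ATRA libraries, with 0.810 times their mean. This difference, −0.30 ± 0.12 on the log2 scale, did not pass the limma threshold (adjusted p = 0.0387). It did with TMM in edgeR (adjusted p = 0.000751) and with DESeq2 (adjusted p = 0.000118). The interaction was 0.40 (95% interval 0.05 to 0.74, limma adjusted p = 0.206).

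A CD38 transcript that retains intron sequence, ENST00000511430 (1672 bases, 3 exons), followed the coding transcript. It had 27.6, 23.7 and 20.3 normalized reads in untreated cells, 17.3, 15.6 and 15.9 with DAC, 318, 294 and 266 with ATRA, and 389, 345 and 376 with DAC+ATRA. Here the DAC+ATRA libraries were the highest, above the ATRA libraries, in contrast to the coding transcript. In a limma fit of all 19373 transcripts past the filter, its log2 fold change with ATRA was 3.57 ± 0.16 (adjusted p = 7.12e-15) and with DAC+ATRA 3.91 ± 0.16 (adjusted p = 1.61e-16). In that fit 6.97% and 41.6% of all transcripts were called. The difference between DAC+ATRA and ATRA, 0.34 ± 0.16, did not pass the threshold (limma, adjusted p = 0.101).

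Relative to the reads of the coding transcript, the retained-intron reads of CD38 were 4.89% ± 1.25 (SD, n = 3) in untreated cells and 5.41% ± 0.742 with DAC. They were 3.11% ± 0.173 with ATRA and 4.87% ± 0.482 with DAC+ATRA. The 3 ATRA libraries lay below all others. The exact two-sided permutation p of ATRA against each other group was 0.1, the smallest that 3 against 3 libraries allow.

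**Figure D3:**
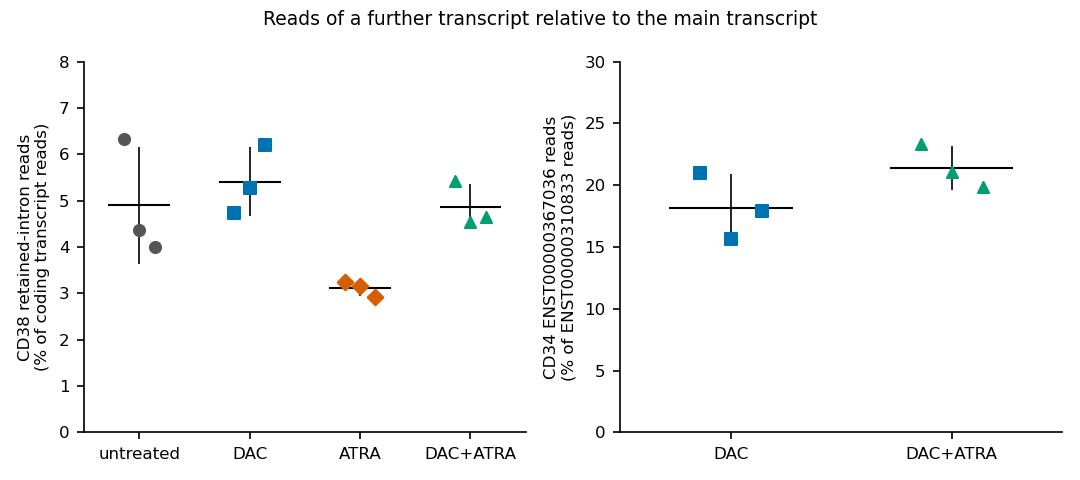
Reads of CD38 ENST00000511430 as a percentage of those of ENST00000226279 in each library of the 4 groups (left), and of CD34 ENST00000367036 as a percentage of those of ENST00000310833 in the groups where CD34 had more than 100 reads (right), with mean and SD of 3 libraries. The ATRA libraries lie lowest for CD38 at 3.11%, and the DAC and DAC+ATRA libraries of CD34 overlap.

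BST1, the neighbour and paralogue of CD38 on chromosome 4, passed no test in any comparison. Its main transcript ENST00000382346 (chr4:15703096-15732787, plus strand, 10 exons) has only 45 bases of 1993 outside other transcripts and yielded 33 to 53 reads per library. It had 39.5, 35.5 and 37.9 normalized reads in untreated cells, 57.3, 43.8 and 40.8 with DAC, 34.8, 31.9 and 34.1 with ATRA, and 47.9, 38.9 and 45.7 with DAC+ATRA. The ATRA libraries lay just below the untreated ones, and the DAC libraries just above them. DAC+ATRA overlapped with untreated and with DAC.

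In limma its log2 fold change was 0.31 with DAC (95% interval −0.10 to 0.72, adjusted p = 0.198), −0.16 with ATRA (−0.57 to 0.25, adjusted p = 0.680) and 0.22 with DAC+ATRA (−0.19 to 0.63, adjusted p = 0.346). Relative to the median of all tested transcripts the values were 0.09, −0.16 and 0.02. Each interval includes 0 and ends far below the change of CD38 with ATRA. No other BST1 transcript had more than 22 reads.

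Since ATRA acts through receptors that bind direct repeats of a half-site, direct repeats with spacers of 5, 2 or 1 bases (DR5, DR2, DR1) were searched within 5000 bp of the start of each member in the hg38 sequence. The half-site was AGGTCA or a relaxed form of it, and both strands were read. Near the start of CD38, CD34, CD33 and CD163 no such repeat was found. Repeats with half-sites outside these forms or with other spacers were not searched, so this does not show that these genes lack a site for the receptors. For BST1 and CD52, tested genes without and with a call for ATRA, the matches are shown with the half-sites in capitals, each read on the strand named.
BST1 DR5 (minus strand, chr4:15702553-15702569, 543 bp before the start): GGTTGAaggagAGGTGA
BST1 DR1 (plus strand, chr4:15707399-15707411, intron): AGGTCAgAGTTGA
CD52 DR2 (plus strand, chr1:26319094-26319107, intron): AGGTCAggAGTTCA
Windows of this size hold a DR5 in 9.29%, a DR2 in 46.4% and a DR1 in 11.04% of 7470 tested genes, so that such letters are common. A match is not a binding site, and none of these positions was measured here.

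CD52 had the largest change of the 5 tested member transcripts. Its coding transcript ENST00000374213 (chr1:26317958-26320523, plus strand, 2 exons, 467 bases) took 97.5% of 3491 reads. Its promoter stretch is shown as for CD38 (RefSeq, GRCh38.p14, chr1:26317708-26317957, plus strand, CpGs in capitals).
CD52 promoter: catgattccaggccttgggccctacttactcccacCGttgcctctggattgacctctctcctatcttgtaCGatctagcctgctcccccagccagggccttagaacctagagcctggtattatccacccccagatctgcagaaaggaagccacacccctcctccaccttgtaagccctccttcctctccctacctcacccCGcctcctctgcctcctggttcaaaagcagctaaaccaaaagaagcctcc
As with CD38, the window of 300 bases holds 4 CpGs. Methylation of these CpGs was not measured in the data used here.

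In untreated cells CD52 had 0, 3.64 and 0 normalized reads, that is 4 reads in 1 of 3 libraries. With DAC it had 233, 254 and 288, with ATRA 14.8, 18.2 and 25.8, and with DAC+ATRA 809, 852 and 1068. The groups did not overlap, in the order DAC+ATRA, DAC, ATRA and untreated. The mean with DAC was 213 times that of untreated cells, with a counting interval from 82.4 to 779 owing to the 4 untreated reads, and the mean with DAC+ATRA was 3.52 times that with DAC (3.19 to 3.75).

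On the log2(normalized read count + 1) scale, which understates changes from 0, CD52 rose by 7.28 ± 0.46 with DAC (SE, limma, adjusted p = 1.04e-08), by 3.59 ± 0.46 with ATRA (adjusted p = 7.47e-05) and by 9.08 ± 0.46 with DAC+ATRA (adjusted p = 7.18e-10). The value with DAC+ATRA was the 20th highest of 9016. Adding DAC to ATRA raised it by 5.49 ± 0.46 (limma, adjusted p = 2.42e-07). Adding ATRA to DAC gave a difference of 1.81 ± 0.46 that missed the limma threshold (adjusted p = 0.0136). It passed with edgeR (adjusted p = 3.95e-08) and DESeq2 (adjusted p = 4.18e-34), and in limma without DAC+ATRA library 11 (adjusted p = 0.00852). Limma without untreated library 2, the only untreated library with CD52 reads, gave an adjusted p of 2.14e-06. That library is not part of this comparison, so leaving it out changed the pooled spread and not the difference. Nothing is read from that value.

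The interaction of CD52 was −1.79 (95% interval −3.18 to −0.39, limma adjusted p = 0.163). Without untreated library 2, which holds the 4 untreated reads, it was −2.52 and passed the limma threshold (adjusted p = 3.71e-05). The untreated values left were then all 0 and without spread, so that this value depends on the pseudocount. Over 23 alternatives the interaction ranged from −4.03 to −1.42 and passed the threshold in 1 of them. A short CD52 transcript of undefined coding sequence, ENST00000492808, had 0 reads in untreated cells and means of 8.06 ± 3.45 (SD, n = 3) normalized reads after DAC, 2.70 ± 1.76 after ATRA and 19.0 ± 4.16 after both agents. These are at least 8.78-fold, 2.94-fold and 20.7-fold higher than 3 reads over the untreated group would be.

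CD52 is also a marker of lymphocytes, and the summed levels of lymphocyte genes were also higher with DAC and DAC+ATRA, and those of B cell genes also with ATRA. The summed level of 9 T cell genes was 2.76 to 10.2 normalized reads in untreated cells, 1045 to 1303 with DAC, 5.46 to 11.6 with ATRA and 831 to 1072 with DAC+ATRA, of which CD5 and CD2 took most. CD8B had 0 normalized reads in untreated and ATRA libraries and 16.3 to 31.2 in those with DAC, CD3G had 0 in untreated cells and 3.16 to 13.6 in those with DAC, and 2 of the 9 genes, CD3E and TRAC, were listed at 0 in all 12 libraries. The sum of 7 B cell genes was 487 to 545 in untreated cells, 871 to 938 with DAC, 557 to 766 with ATRA and 1705 to 1839 with DAC+ATRA, with CD79B and BLK among 3 genes at 0. CD79A had 124 to 141 normalized reads in untreated cells, 501 to 523 with DAC, 226 to 369 with ATRA and 1299 to 1385 with DAC+ATRA. CD22 had 0.910 to 6.46, 6.49 to 13.9, 34.8 to 56.6 and 54.7 to 65.5 in these groups. PAX5 had 342 to 421, 342 to 413, 275 to 365 and 340 to 387. In these lists 3 of 9 and 3 of 7 genes passed the filter. Their part in the result was not tested.

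**Figure D4:**
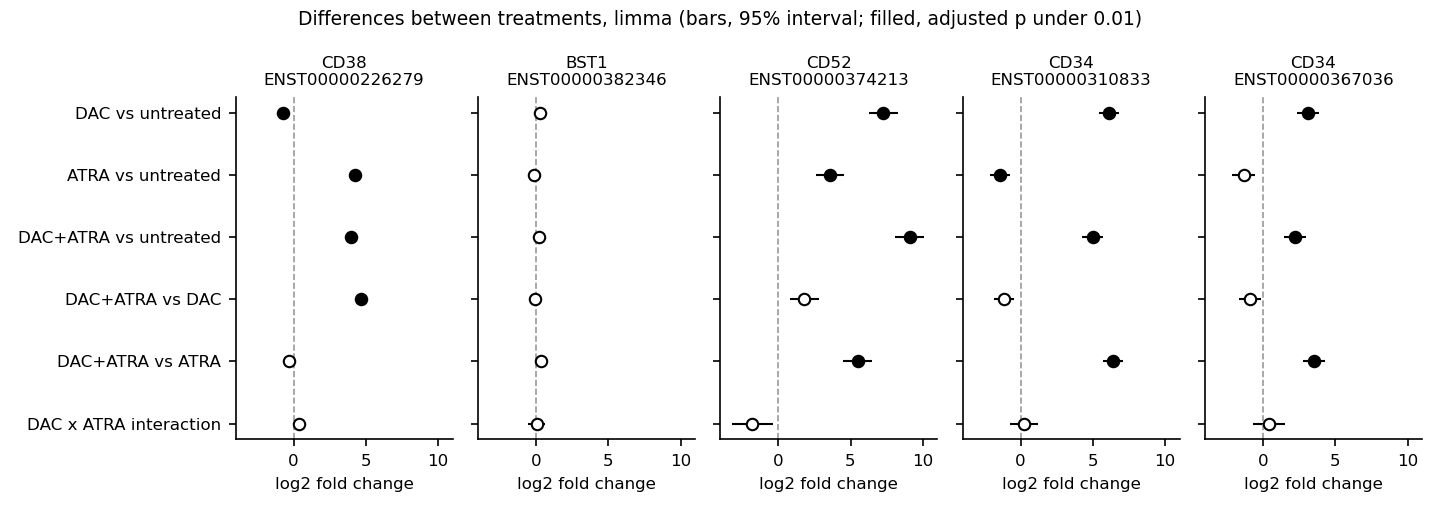
Log2 fold changes (x) with 95% intervals of the 5 tested member transcripts in 6 comparisons, from limma on log2(normalized read count + 1), filled where the adjusted p was under 0.01. The largest value is that of CD52 with DAC+ATRA at 9.08, all values of BST1 lie near 0, and CD34 lies below 0 with ATRA and above 0 with DAC.

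CD34, a sialomucin of progenitor cells, followed DAC, and its libraries lay lower with ATRA than without it. Its longest transcript ENST00000310833 (chr1:207880972-207911125, minus strand, 8 exons) took 80.9% of 1744 reads. It had 5.51, 1.82 and 4.62 normalized reads in untreated cells, 319, 337 and 328 with DAC, 1.06, 0 and 1.66 with ATRA, and 151, 160 and 131 with DAC+ATRA. No group overlapped with another, in the order DAC, DAC+ATRA, untreated and ATRA, but the last pair rests on 13 and 3 reads. Its promoter window holds 19 CpGs, and 42.9% of promoters hold as many or more.

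DAC raised CD34 to 82.3 times the untreated mean (counting interval 48.0 to 156). The log2 fold change was 6.13 ± 0.33 (SE, limma, adjusted p = 3.2e-12) with DAC, 4.98 ± 0.33 (adjusted p = 6.61e-11) with DAC+ATRA and 6.39 ± 0.33 (adjusted p = 2.39e-12) for DAC+ATRA over ATRA. DAC+ATRA reached 0.449 times the mean of DAC alone (counting interval 0.402 to 0.507). This difference of −1.15 ± 0.33 missed the limma threshold (adjusted p = 0.0185) and passed it with edgeR (adjusted p = 6.31e-06) and DESeq2 (adjusted p = 7.82e-11). In limma it also passed without untreated library 2 (adjusted p = 0.00776), ATRA library 8 (0.00346) or ATRA library 9 (0.00812). These libraries are not part of this comparison, so only the pooled spread changed. The interaction of CD34 was 0.26 (95% interval −0.72 to 1.24, limma adjusted p = 0.840).

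With ATRA alone, CD34 was at 0.228 times the untreated mean (counting interval 0.0425 to 0.846). The log2 fold change was −1.41 ± 0.33 (limma, adjusted p = 0.00530), and this call did not hold in 12 of 24 alternatives. With edgeR the adjusted p was 0.0498 and with DESeq2 0.111. Leaving out untreated library 1 or 3, DAC library 4, ATRA library 8 or DAC+ATRA library 10 gave 0.0360, 0.0271, 0.0116, 0.0312 and 0.0112.

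The shorter CD34 transcript ENST00000367036 (chr1:207886539-207890492, 5 exons) had 11.9, 4.55 and 3.69 normalized reads in untreated cells, 67.0, 52.6 and 58.8 with DAC, 2.11, 2.73 and 0.832 with ATRA, and 35.3, 33.7 and 26.0 with DAC+ATRA. The groups had the same order as for the longer transcript. Its log2 fold change was 3.11 ± 0.37 with DAC (limma, adjusted p = 5.01e-07) and 2.22 ± 0.37 with DAC+ATRA (adjusted p = 3.22e-05). With ATRA it was −1.33 ± 0.37 and missed the threshold (limma, adjusted p = 0.0175). Its reads were 18.2% ± 2.71 (SD, n = 3) of those of the longer transcript with DAC and 21.4% ± 1.80 with DAC+ATRA, and these ranges overlapped. In untreated cells it had 22 reads against 13 of the longer transcript, which is too few for a ratio per library. The transcript ENST00000356522 had reads only in DAC-treated and DAC+ATRA-treated cells, 29 and 9 in all.

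Summed levels of lists drawn up for other lineages were also higher with DAC and DAC+ATRA. The summed level of 11 erythroid and megakaryocyte genes was 19.3 to 33.2 normalized reads in untreated cells, 378 to 516 with DAC, 25.8 to 38.2 with ATRA and 255 to 279 with DAC+ATRA, carried by GP9 and ITGA2B, with ALAS2 and 5 globin genes among those at 0. The sum of 10 genes listed as epithelial and stromal was 154 to 184, 2699 to 2703, 305 to 365 and 3055 to 3425 in these groups. Most of it came from PECAM1, which already had 129 to 151 normalized reads in untreated cells. This sum therefore says little about epithelial or stromal genes as a set. COL1A1 had 14.6 to 21.2 in untreated cells and 208 to 266 with DAC, KRT8 had 0 to 0.910 and 6.49 to 17.5, and EPCAM had 0 and 2.16 to 9.96, while KRT18, CDH1 and COL3A1 were at 0 in all libraries. Of these lists 3 and 4 genes passed the filter. The part of these genes in the result was not tested. The summed level of the 12 genes of myeloid identity was lower with treatment. It was 56436 to 63380 in untreated cells, 36277 to 52906.5 with DAC, 36162 to 53308 with ATRA and 32565 to 34992 with DAC+ATRA. MPO had 49005 to 55158 in untreated cells and 14199 to 15452 with DAC+ATRA, while CEBPA, LYZ, ITGB2 and CYBB were higher with DAC+ATRA.

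CD33 passed no test against untreated cells on the transcript that could be measured. Of its 10093 reads, 99.7% fell on ENST00000598473 (chr19:51225966-51243860, plus strand), which retains intron sequence and has 3424 bases of its own. It had 839, 807 and 892 normalized reads in untreated cells, 825, 832 and 849 with DAC, 804, 736 and 887 with ATRA, and 817, 733 and 730 with DAC+ATRA. Each treated group overlapped with the untreated one. The log2 fold changes in the limma fit of all transcripts were −0.02 for DAC (95% interval −0.23 to 0.20, adjusted p = 0.907), −0.07 with ATRA (−0.28 to 0.15, adjusted p = 0.778) and −0.15 with DAC+ATRA (−0.37 to 0.06, adjusted p = 0.221), with 33.5%, 6.97% and 41.6% of all transcripts called. The 4 coding transcripts of CD33 had 5 reads in all on 147 bases of their own, so that a change of the coding form was not detectable.

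CD14, CD68 and CD163 were near the limit of detection in all 12 libraries. CD14 had 8 reads, none in untreated cells, 1 after DAC, 5 after ATRA and 2 after both agents. CD68 had 9 reads on ENST00000584180, and CD163 had 13 reads, all on transcripts without a defined coding sequence. Summed over transcripts, no library exceeded 2.47 normalized reads for CD14, 2.71 for CD68 and 3.71 for CD163. These are about what 3 reads give. Of their coding transcripts, 4 of 5 for CD14, 3 of 4 for CD68 and 2 of 6 for CD163 have no base of their own or could not be matched. No statement on the expression of these genes can be drawn from such values.

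CD163 ENST00000537044, which retains intron sequence, had 1 read in untreated cells, 5 after DAC, 0 after ATRA and 6 after both agents. The ranges with DAC and DAC+ATRA lay above those without DAC, but the ratio of DAC to untreated, 5.55, had a counting interval from 0.619 to 262.

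The tested transcripts most alike to each responding member over the 12 libraries were sought by Pearson's r of the log2 values, as a description, since the libraries share treatments and depth. For CD38 these were PIK3CG (r = 0.997), ERAP2 (0.985) and CD70 (0.985). PIK3CG, a catalytic subunit of phosphoinositide 3-kinase, had means of 47.1, 35.2, 340 and 271 normalized reads in untreated, DAC, ATRA and DAC+ATRA-treated cells. For CD52 they were SH2D1B (0.993), MMRN2 (0.990) and SLC17A7 (0.990). MMRN2, an extracellular matrix protein of vessels, had means of 39.1, 813, 184 and 2333 in these groups. For CD34 they were KLHDC7B (0.993), GATA2 (0.990) and TMEM236 (0.988). GATA2, a transcription factor of hematopoietic progenitors, had means of 4.90, 985, 2.14 and 381. BST1 was not searched, since its group means spanned only 0.47 on the log2 scale.

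Other surface markers of the same lineages and the pathways around the members were described from lists, by the main protein-coding transcript of each gene. Of 20 monocyte and macrophage surface markers 10 were tested. DAC raised 4 of them, ATRA 2 and DAC+ATRA 7, and none was lowered in these 3 comparisons, where 30.6%, 6.47% and 32.6% of all tested transcripts were called upwards. The 4 genes CD80, CD209, TREM1 and CCR2 had no untreated library at 10 normalized reads, so that the filter itself asked for a higher level in a treated group, and all 4 are among the 7. The median log2 fold change with DAC+ATRA was 2.07 against 0.22 over all tested genes. With these 4 genes in it, the count and the median are a description of the genes that passed. MRC1, the mannose receptor of macrophages, rose from 14.1 ± 5.61 to 759 ± 123 normalized reads with DAC+ATRA (SD, n = 3, log2 fold change 5.71, limma adjusted p = 7.17e-13). It had 1093 ± 330 with DAC alone and 10.2 ± 2.29 with ATRA alone. Adding ATRA to DAC did not pass the threshold for MRC1 (−0.50, limma adjusted p = 0.202). FCGR1A, the high-affinity Fc receptor for IgG, was lowest with DAC+ATRA at −0.28 (adjusted p = 0.162).

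Of 10 granulocyte surface markers 4 were tested. DAC raised 3 and lowered 1, ATRA lowered 1, and DAC+ATRA raised 2 and lowered 2, with 30.6%, 6.47% and 32.6% of all tested transcripts called upwards and 8.7%, 2.67% and 14.2% downwards. CEACAM1, an adhesion molecule of granulocytes and other cells that passed the filter through DAC+ATRA alone, went from 0 reads in untreated cells to 82.4 ± 13.3 normalized reads with DAC+ATRA, at least 89.8-fold higher than 3 reads over the untreated group (limma adjusted p = 7.45e-11). FUT4, which makes the CD15 antigen, fell from 5282 ± 176 to 1921 ± 128 (log2 fold change −1.46, adjusted p = 1.85e-10).

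Of 15 progenitor surface markers 9 were tested, among them THY1 and TFRC through treated groups only. DAC raised 2 and lowered 2 (30.6% and 8.7% of all tested transcripts), ATRA raised 1 and lowered 1 (6.47% and 2.67%), and DAC+ATRA raised 3 and lowered 3 (32.6% and 14.2%), with a median of −0.63 against 0.22 over all tested genes. THY1, like CD34 without a strong signal in untreated cells, had 0 reads there and with ATRA, and 138 ± 10.4 normalized reads with DAC and 82.1 ± 11.1 with DAC+ATRA, at least 150-fold and 89.4-fold higher than 3 reads over the untreated group. KIT, the stem cell factor receptor, fell from 55.01 ± 9.15 to 18.2 ± 3.90 with DAC+ATRA (log2 fold change −1.55, limma adjusted p = 4.96e-06).

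Around CD14, 10 of 16 genes of lipopolysaccharide recognition and signaling were tested. DAC raised 3 and lowered 1, ATRA raised 2, and DAC+ATRA raised 7 and lowered 1, with a median of 1.23 against 0.22 over all tested genes. Of all tested transcripts 30.6%, 6.47% and 32.6% were called upwards in these comparisons, and 8.7%, 2.67% and 14.2% downwards, so that the shares with DAC are near the background. LBP and BPI, both among the 7, had no untreated library at 10 normalized reads. BPI, which binds and neutralizes lipopolysaccharide, rose from 0.308 ± 0.533 to 94.8 ± 9.96 normalized reads with DAC+ATRA (log2 fold change 6.26, limma adjusted p = 1.63e-09). TLR4, the signaling receptor itself, rose from 213 ± 43.8 to 526 ± 59.9 (1.32, adjusted p = 5.03e-07) and was chosen for mention after its values were seen. IRAK3, an inhibitor of the pathway, was lowest (−0.33, adjusted p = 0.00868), a call that was lost without any 1 of the 3 untreated or 3 DAC+ATRA libraries (adjusted p = 0.0134 to 0.0423).

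Around CD38 and BST1, 13 of 25 genes of NAD metabolism were tested. DAC raised 2 (30.6% of all tested transcripts), ATRA lowered 1 (2.67%), and DAC+ATRA raised 3 and lowered 3 (32.6% and 14.2%), with a median of 0.13 against 0.22 over all tested genes. The NAD-dependent deacetylase SIRT2 was highest with DAC+ATRA (15.3 ± 3.76 to 41.0 ± 5.65 normalized reads, log2 fold change 1.38, limma adjusted p = 0.000147). TRPM2, a cation channel gated by ADP-ribose, was lowest (14.7 ± 2.51 to 2.86 ± 2.72, −2.38, adjusted p = 0.00273). This call was lost without DAC+ATRA library 12 (−1.59, adjusted p = 0.0173), without untreated library 3 (adjusted p = 0.0135) and with a pseudocount of 0.1 (adjusted p = 0.0172).

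Of 30 genes of GPI anchor synthesis, on which BST1, CD14 and CD52 depend for the surface, 9 were tested. DAC and DAC+ATRA lowered 2 each, against 8.7% and 14.2% of all tested transcripts. The median with DAC+ATRA was −0.41 against 0.22, from PIGM at 0.01 (adjusted p = 0.922, below 0 with other scalings) to PIGU, a subunit of the transamidase, at −1.09 (adjusted p = 1.36e-06). Of 17 genes of heme and hemoglobin handling around CD163, 8 were tested. DAC raised 5, ATRA raised 1 and lowered 1, and DAC+ATRA raised 5, against 30.6%, 6.47% and 32.6% of all tested transcripts called upwards and 2.67% downwards with ATRA. HMOX1, the inducible heme oxygenase, was highest with DAC+ATRA (20.5 ± 4.37 to 270 ± 20.0 normalized reads, 3.67, adjusted p = 2.09e-12) and the heme transporter SLC48A1 lowest (−0.33, adjusted p = 0.0285). SLC48A1 passed the threshold in 8 of 24 alternatives, among them edgeR with TMM (adjusted p = 0.000666) and DESeq2 (adjusted p = 0.000195).

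**Figure D5:**
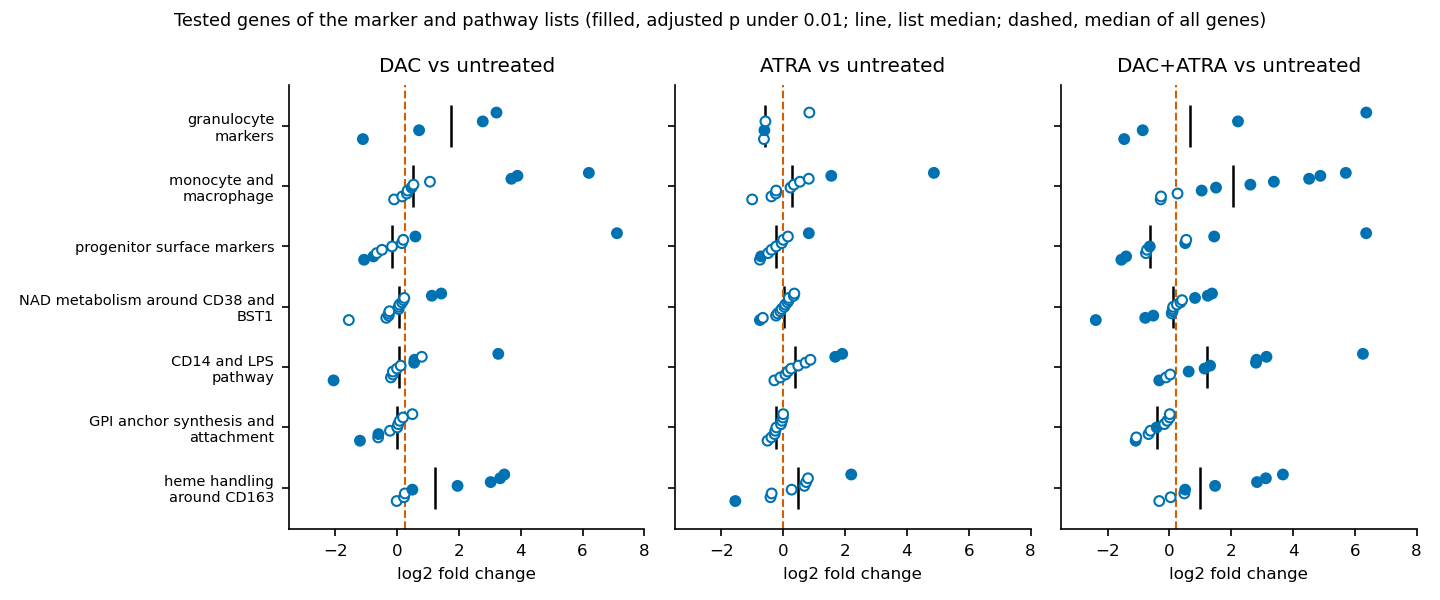
Log2 fold changes (x) of the tested genes of 7 lists with each treatment against untreated cells, filled where the limma adjusted p was under 0.01, with the median of each list (line) and of all tested genes (dashed). With DAC+ATRA the monocyte and macrophage list, 4 of whose 10 tested genes passed the filter through treated groups only, has its median at 2.07 and the progenitor list at −0.63.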

How the data were processed

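The paper names STAR for alignment to hg38, htseq-count for counting and DESeq2 for differential expression testing. The tool behind the size factors, versions, annotation release and strand setting are not given in the sources used here. The signal values deposited by the authors are read counts per transcript divided by a size factor for each library (0.809 to 1.20). In every library 100% of the values were whole reads within 0.001 of a read, and with a median of 9874622 reads per library, transcripts with few reads have imprecise folds. Intervals of ratios are exact 95% intervals of counting error only.

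Transcript types, exons and the bases outside other transcripts came from GENCODE 44, whose transcript versions differ from the deposited ones for some members. Limma 3.58.1 in R 4.3.3 (lmFit, eBayes with trend and robust) was fitted to all 12 libraries, with adjustment within each of 6 comparisons. Every adjusted p without another tool named comes from this limma fit. For single values, exact permutation tests over 3 against 3 libraries were used. Members and lists were chosen with earlier results of these data known. Named were all members, for members whose group means spanned more than 1 (log2) the 3 most alike transcripts, and from each list the highest and the lowest gene with DAC+ATRA. Columns of the table name a treatment but not which sample, so libraries carry the number of their column.

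On the recovered reads, edgeR 4.0.16 with TMM called 3898, 988 and 4469 of 9016 transcripts with DAC, ATRA and DAC+ATRA and DESeq2 1.42.0 called 3670, 998 and 4250, against 3547, 824 and 4215 by limma. The further alternatives were edgeR with DESeq2's size factors, size factors from protein-coding transcripts, a pseudocount of 0.1, no filter, at least 10 reads in every library, all transcripts, sums by symbol, only the groups compared, an adjusted p under 0.05 and leaving out each library. The scripts were tested on simulated data. Promoters from RefSeq (GRCh38.p14) were found for 7 of 8 members, not for BST1. Protein sequences were not used here. Python 3.11.15 (numpy 2.4.6, pandas 2.3.3) made the tables, scipy 1.17.1 the exact tests and matplotlib 3.10.9 the figures.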

Additional observations from a re-analysis of the deposited data

Results flagged for a closer look

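None of the 4 tested markers passed the limma test of the DAC x ATRA interaction (2 at an unadjusted p under 0.05, 0 by edgeR or DESeq2). In the lists around them 5 of the 63 tested genes passed it (7.94%, Benjamini-Hochberg adjusted p under 0.01), against 2.46% of all tested transcripts, and they are given here for that reason. Of these, 4 (CEACAM1, CD80, LBP and CCR2) had no untreated library at 10 normalized reads and were tested through treated groups, so that nothing is read from this share. CD80 and CEACAM1 reached 10 normalized reads with DAC+ATRA alone, and their positive interactions are a description. LBP, the serum protein that hands lipopolysaccharide to CD14, had 6.73 ± 1.05 (SD, n = 3) normalized reads in untreated cells, 1.05 ± 1.08 after DAC, 11.7 ± 1.48 after ATRA and 67.6 ± 12.7 after both agents, an interaction of 4.47 on the log2 scale (limma, adjusted p = 2.09e-05). CD80, a costimulatory ligand, had 1.84 ± 0.0135, 2.68 ± 1.05, 0.607 ± 1.05 and 16.5 ± 1.91 in these groups (3.29, limma adjusted p = 0.00197), and lost the call in 4 of 17 alternatives. CEACAM1 had 0, 6.32 ± 3.26, 0.959 ± 0.914 and 82.4 ± 13.3 (2.75, limma adjusted p = 0.00862), and lost it in 14 of 18 alternatives, edgeR among them with 0.56 and an adjusted p of 0.799. With all 3 untreated libraries at 0, its fitted value depends on the pseudocount.

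The other 2 genes had interactions below 0, that is a combination below the sum of the single log2 effects. CCR2, the receptor that draws monocytes from the blood, had 1.84 ± 0.0135 normalized reads in untreated cells, 41.7 ± 9.27 after DAC, 83.0 ± 14.5 after ATRA and 65.7 ± 18.1 after both agents (−4.25, limma adjusted p = 3.5e-07), and kept the call in 22 of 22 alternatives. HMOX1 had 20.5 ± 4.37, 172 ± 2.93, 99.7 ± 29.7 and 270 ± 20.0 (−1.56, limma adjusted p = 0.0015), and lost the call without DAC+ATRA library 10 (adjusted p = 0.0107).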

How the results depend on the processing

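Of 720 values of member transcripts under an alternative, 673 kept their direction and their side of the threshold, 31 gained a call, 12 lost it and 4, none of them past the threshold, changed sign. All 12 losses were those of CD34 with ATRA. The sign changes came with leaving out 1 library, which gave −0.18 to 0.056 for BST1 with DAC+ATRA over DAC and, for the interaction, −0.025 to 0.21 for BST1, −0.15 to 0.63 for CD34 ENST00000310833 and −0.013 to 0.72 for CD34 ENST00000367036. PIGM with DAC+ATRA, 0.01 by limma, was −0.13 with edgeR (TMM), −0.13 with DESeq2, −0.12 with size factors from protein-coding transcripts, −0.14 and −0.12 with edgeR and DESeq2 without DAC library 6, and −0.070 to 0.082 when leaving out 1 library. The count of members called for DAC+ATRA over DAC, 1 by limma, was 3 with DESeq2, with edgeR (TMM or DESeq2 size factors), with only the groups compared, with an adjusted p under 0.05, and with edgeR or DESeq2 without DAC library 6, the last pair chosen after seeing the data. It was 2 with no filter and with sums by symbol. With at least 10 reads in every library, which leaves only CD38 and BST1 to test, 1 member was called with each treatment over untreated cells and 0 for DAC+ATRA over ATRA. Leaving out 1 library at a time gave 1 to 3 members for DAC+ATRA over DAC, with 3 without untreated library 2 and 2 without ATRA library 8, ATRA library 9 or DAC+ATRA library 11. The untreated and ATRA libraries enter that comparison only through the pooled spread. For the interaction it gave 0 to 1, with CD52 called without untreated library 2. The untreated CD52 values left were then all 0, so that this call depends on the pseudocount. Where an arm had 2 libraries left, the pooled spread of limma was used. With TMM the median change of all transcripts was 0.02 with DAC and 0.06 with DAC+ATRA in place of 0.22 and 0.20. No paired analysis was possible because the columns carry no replicate number of the samples. Few reads limit the precision for CD14, CD68, CD163 and coding CD33, most of whose coding transcripts have few or no bases of their own, for BST1 (33 to 53 reads per library on 45 such bases), and for untreated CD52 and CD34 (4 and 13 reads).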
